A study of Mus musculus with 18 samples.

Results

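The 6 genes described here encode the striated-muscle myosin heavy chains Myh1, Myh2, Myh3, Myh4, Myh7 and Myh8, and they were chosen by symbol from 29433 annotated genes with a count in mouse tibialis anterior muscle. RNA was sequenced from 10 muscles of tumour-bearing mice and 8 muscles of controls, with 2 biological replicates in each of 9 groups. LLC tumour mice (C57BL/6) received Lewis lung carcinoma cells into muscle, and their controls received PBS. KPCML1 tumour mice (1000 cells) and KPC tumour mice (50000 cells), both C57BL/6, were injected orthotopically and are set against the same Matrigel-only controls. C26 tumour mice (CD2F1) carried subcutaneous colon-26 cells, with PBS-injected controls. KPP tumour mice (C57BL/6) carried a genetic tumour induced with tamoxifen, and their controls are labelled as having no tumour. The alleles of the KPP mice, whether their controls received tamoxifen, and the age and sex of the animals are not given in the labels used here. Strain, route of injection and tumour type all differ between models, so each tumour group is compared with its own control.

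Myosin heavy chain is the motor of the thick filament, and the isoform a fibre expresses sets much of its shortening speed. In mouse limb muscle Myh4 marks type IIb fibres, Myh1 type IIx fibres, Myh2 type IIa fibres and Myh7 slow type I fibres, while Myh3 and Myh8 are the embryonic and perinatal isoforms that return in regenerating fibres. The tibialis anterior is a fast muscle. In bulk RNA, fewer fibres of a type and less RNA per fibre cannot be told apart.

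Reads are shared among close members of the family, so coding stretches of the 3 adult fast isoforms are shown at both ends of the range of similarity. In 60 coding bases of exon 14 of Myh1 (chr11:67206531-67206590, mm10, plus strand), exon 14 of Myh2 (chr11:67179553-67179612) and exon 13 of Myh4 (chr11:67245718-67245777), the 3 sequences had 0 differing positions.
Myh1, Myh2 and Myh4: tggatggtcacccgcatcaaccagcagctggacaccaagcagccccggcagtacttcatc
In the 60 coding bases that differed most, 24 positions were not the same in all 3 genes, and capitals mark those positions.
Myh1, exon 29, chr11:67217464-67217523: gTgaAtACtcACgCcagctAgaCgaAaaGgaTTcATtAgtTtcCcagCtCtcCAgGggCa
Myh2, exon 29, chr11:67191348-67191407: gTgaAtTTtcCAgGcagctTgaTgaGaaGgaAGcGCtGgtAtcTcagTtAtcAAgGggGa
Myh4, exon 28, chr11:67254458-67254517: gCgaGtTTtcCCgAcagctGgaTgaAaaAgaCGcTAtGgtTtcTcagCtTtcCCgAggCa

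Over the whole coding sequence, Myh1 was 91.0% identical to Myh2 and 90.1% identical to Myh4, and Myh4 was 77.4% identical to Myh7. Of all 31-base windows in the main transcript, 2357 of 6051 of Myh1, 38.4% of those of Myh2, 30.8% of those of Myh8 and 29.9% of those of Myh4 also occurred in another member. The values for Myh3 and Myh7 were 9.58% and 1.23%. For windows of 150 bases, the length of a sequenced read, no member exceeded the 2.49% of Myh1. Against the cardiac gene Myh6, which is no member and lies beside Myh7 (chr14:54941921-54966927), the share of Myh7 windows was larger, at 32.2% for 31 bases and 5.51% for 150 bases. Values of single isoforms, Myh7 included, therefore carry the uncertainty of how the quantifier divided shared reads.

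The windows before the RefSeq start sites of the 3 adult fast genes also hold shared runs, and they are shown because Myh1 and Myh4 are the members that make up nearly all of the family RNA. Each line gives the bases 250 to 51 before the start in build GRCm38.p6, on the plus strand, and capitals mark runs of at least 12 bases shared with Myh1 or Myh4.
Myh1, chr11:67199852-67200051: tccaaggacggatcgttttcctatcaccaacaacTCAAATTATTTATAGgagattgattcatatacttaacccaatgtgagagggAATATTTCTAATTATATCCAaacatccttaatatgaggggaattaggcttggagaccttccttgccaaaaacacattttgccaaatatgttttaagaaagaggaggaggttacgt
Myh4, chr11:67237562-67237761: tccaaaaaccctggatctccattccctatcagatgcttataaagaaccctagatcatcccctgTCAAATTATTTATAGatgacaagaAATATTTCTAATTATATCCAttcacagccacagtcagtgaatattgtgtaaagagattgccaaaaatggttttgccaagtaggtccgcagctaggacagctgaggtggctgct
Myh2, chr11:67170777-67170976: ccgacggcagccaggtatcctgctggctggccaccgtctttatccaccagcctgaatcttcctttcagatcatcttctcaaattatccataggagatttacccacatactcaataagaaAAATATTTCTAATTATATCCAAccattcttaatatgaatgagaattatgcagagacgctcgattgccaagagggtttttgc

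The run TCAAATTATTTATAG was present before Myh1, Myh4 and Myh8, and it occurred in 3 of 32851 promoter windows of 250 bases, on either strand. The run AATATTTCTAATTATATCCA was present before Myh1, Myh2 and Myh4 and likewise occurred in 3 windows. The MEF2 motif, searched on both strands, had a match before Myh1, Myh4 and Myh8 and was held by 2.92% of all windows. The E-box CANNTG was held by 66.2% of all windows and had no match before Myh1 or Myh2. TATAAA was held by 12.4% of all windows and was present before Myh1, Myh3, Myh4 and Myh8. These matches describe letters in the windows and were not tied to any change in level.

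The libraries held between 22546541 and 36673780 fragments assigned to transcripts. The tissue label was checked against marker genes: 10 skeletal muscle markers summed to between 51280 and 106396 CPM (estimated counts scaled to library size) in tumour libraries and to between 90666 and 109079 CPM in control libraries. The 8 heart markers summed to between 1.79 and 9.94 CPM in tumour libraries and to between 2.86 and 9.15 CPM in control libraries. Matrigel control replicate 1 stood apart from replicate 2 on several members, with 145 CPM of Myh2 against 853 CPM. C26 tumour replicate 2 stood apart more broadly: its skeletal muscle markers summed to 51280 CPM, with 79130 CPM in the next lowest library, and it had the lowest sum of fast-fibre genes (59026 CPM) and the lowest share of mitochondrially encoded transcripts (13.02% of TPM). The same library had the lowest Myh4 CPM of the series and the C26 group's highest Myh8 and Myh3.

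The family took 3.46% to 7.69% of all fragments, and Myh1 and Myh4 together made up 96.7% to 99.7% of the summed family TPM (a scale corrected for transcript length, with the same total in every library). Myh4 was the most abundant member in 15 libraries, and Myh1 lay above it in the other 3 of 18, both KPP tumour libraries and C26 tumour replicate 2. Myh2 came next in every library, and its share lay between 0.317% and 3.2% in tumour libraries and between 0.259% and 2.66% in control libraries. Myh3, Myh7 and Myh8 each stayed at or below 0.138% of the family in all libraries. Myh8 was above Myh3 in all 18 libraries. On TPM, Myh7 was above Myh8 in 8 of them and above Myh3 in 14, so its place beside these neighbours was not separated beyond the spread. The order also depends on the scale. On CPM, Myh7 was below Myh8 in LLC tumour replicate 1 (2.35 against 4.22), KPP control replicate 2 (1.40 against 3.40) and KPP tumour replicate 1 (5.00 against 5.82).

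**Figure D1:**
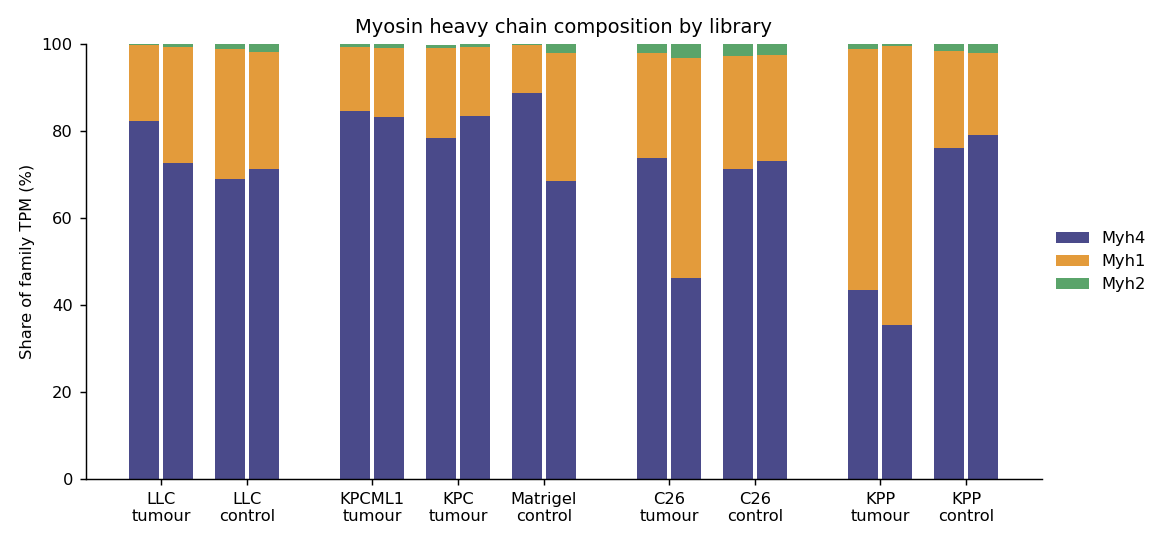
Share of the summed TPM of the 6 myosin heavy chains (vertical axis, percent) held by Myh4, Myh1 and Myh2 in each of 18 libraries, 2 bars per group; Myh3, Myh7 and Myh8 are too small to be seen. Myh1 holds 55.2% and 63.9% in KPP tumour libraries against 22.4% and 18.9% in KPP control libraries.

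The composition of the family differed most in the KPP model. Myh1 held 55.2% and 63.9% of the family TPM in KPP tumour libraries, against 22.4% and 18.9% in KPP control libraries. Myh4 held 43.6% and 35.6% in KPP tumour libraries, against 76.1% and 79.1% in KPP control libraries. Neither gene's groups overlapped, and the difference in mean share was 38.9 percentage points for Myh1 and -38.0 for Myh4. The shares of the members add up to 100%, and these genes hold nearly all of it. Their share differences are therefore not independent of each other.

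In C26 mice the tumour libraries disagreed with each other. Myh1 held 24.0% and 50.5% in C26 tumour libraries, against 25.9% and 24.4% in C26 control libraries, and Myh4 held 73.8% and 46.2% in C26 tumour libraries, against 71.4% and 73.1% in C26 control libraries. Only C26 tumour replicate 2, the library with the low muscle marker sum, lay outside the control range by a wide margin. The part of that sum in its composition was not tested. The LLC libraries went the other way from KPP: Myh1 held 17.4% and 26.7% in LLC tumour libraries, against 29.9% and 26.8% in LLC control libraries. Myh4 held 82.3% and 72.6% in LLC tumour libraries, against 68.9% and 71.3% in LLC control libraries. These LLC groups did not overlap, although the nearest Myh1 values were 26.7% and 26.8%.

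Both orthotopic tumour groups lay inside the wide span of their shared controls. Myh1 held 14.7% and 15.9% in KPCML1 tumour libraries and 20.8% and 15.99% in KPC tumour libraries, against 11.05% and 29.4% in Matrigel control libraries. Myh4 held 84.5% and 83.2% in KPCML1 tumour libraries and 78.4% and 83.4% in KPC tumour libraries, against 88.7% and 68.6% in Matrigel control libraries. With 2 muscles against 2, an exact two-sided permutation test of one model cannot go below p = 0.333, so single models were not tested on shares.

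Averaged over the 5 models, no member's share passed an exact two-sided permutation test over samples. Labels were exchanged within each experiment (3240 relabelings). Because shares add up to 100%, the tests of the members are not independent. The mean difference was 7.59 percentage points for Myh1 (exact p = 0.189) and -7.09 for Myh4 (exact p = 0.224). Without C26 tumour replicate 2 these were 4.94 and -4.33 (exact permutation p = 0.324 and 0.378), and without Matrigel control replicate 1 they were 3.91 and -3.08 (exact permutation p = 0.524 and 0.61). Without Matrigel control replicate 2 they were 11.3 and -11.1 (exact permutation p = 0.0676 and 0.0694). For Myh2, the type IIa isoform, it was -0.52 percentage points (exact p = 0.0679), with a lower mean in 4 of 5 models. Myh7, Myh8 and Myh3 had exact p = 0.383, 0.609 and 0.82, on differences of 0.02 percentage points or less. Without Matrigel control replicate 1 the Myh2 difference was -0.858 percentage points (exact permutation p = 0.00741), and without C26 tumour replicate 2 it was -0.633 (exact permutation p = 0.0167). Without Matrigel control replicate 2 it was -0.181 (exact permutation p = 0.453).

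Gene by gene, levels were compared as CPM with edgeR's quasi-likelihood test and Benjamini-Hochberg adjustment over all 16089 genes tested, with an adjusted p under 0.05 as the threshold. Myh1 was the member with the clearest change. It had 27546 and 40833 CPM in KPP tumour libraries, against 8767 and 9204 CPM in KPP control libraries. Both tumour libraries lay above every other library of the series. The log2 fold change was 1.93 ± 0.33 (SE approximated from the F statistic), with an edgeR adjusted p = 0.000703, and it passed in every alternative fit run.

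In the other models Myh1 did not pass. It had 16386 and 16635 CPM in C26 tumour libraries, against 13054 and 8450 CPM in C26 control libraries, a log2 fold change of 0.62 ± 0.32 (edgeR adjusted p = 0.192) with groups that did not overlap. It had 13352 and 12040 CPM in KPC tumour libraries and 9835 and 8349 CPM in KPCML1 tumour libraries, against 6172 and 12856 CPM in Matrigel control libraries. Those groups overlapped, and the log2 fold changes were 0.42 ± 0.32 and -0.07 ± 0.32. It had 8310 and 12033 CPM in LLC tumour libraries, against 11514 and 11403 CPM in LLC control libraries (-0.17 ± 0.32). The mean effect over the 5 models was 0.55 ± 0.16 (edgeR adjusted p = 0.0109), and without Matrigel control replicate 1 it was 0.35 (adjusted p = 0.0744).

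Myh4, the type IIb isoform, passed in no model. It had 21685 and 22722 CPM in KPP tumour libraries, against 29929 and 38440 CPM in KPP control libraries, a log2 fold change of -0.62 ± 0.42 (edgeR adjusted p = 0.26). It had 39357 and 32723 CPM in LLC tumour libraries, against 26557 and 30382 CPM in LLC control libraries (0.34 ± 0.42). In both of these models the groups did not overlap, with KPP tumour libraries below and LLC tumour libraries above their controls. KPC tumour libraries had 50291 and 62902 CPM and KPCML1 tumour libraries 56348 and 43535 CPM, against 49766 and 30094 CPM in Matrigel control libraries (0.50 ± 0.42 and 0.32 ± 0.42). C26 tumour libraries had 50435 and 15216 CPM, against 36198 and 25453 CPM in C26 control libraries (0.09 ± 0.42). One C26 tumour library was thus the lowest of the series and the other among the highest. Without C26 tumour replicate 1, Myh4 was called lower in that model, at -1.05 (edgeR adjusted p = 0.0424).

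Myh2 passed in no model either. It had 152 and 314 CPM in LLC tumour libraries, against 469 and 791 CPM in LLC control libraries, with no overlap and a log2 fold change of -1.43 ± 0.60 (edgeR adjusted p = 0.137). In KPP tumour libraries it had 585 and 311 CPM, against 599 and 940 CPM in KPP control libraries (-0.78 ± 0.60). It had 1418 and 1056 CPM in C26 tumour libraries, against 1349 and 848 CPM in C26 control libraries (0.17 ± 0.59). The highest Myh2 levels of the series, all above 1000 CPM, were in 3 of these 4 CD2F1 libraries. KPCML1 tumour libraries had 460 and 484 CPM and KPC tumour libraries 445 and 477 CPM, between the 145 and 853 CPM of the Matrigel control libraries. Fitted to the LLC libraries alone, Myh2 was called lower there (edgeR adjusted p = 0.0166).

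**Figure D2:**
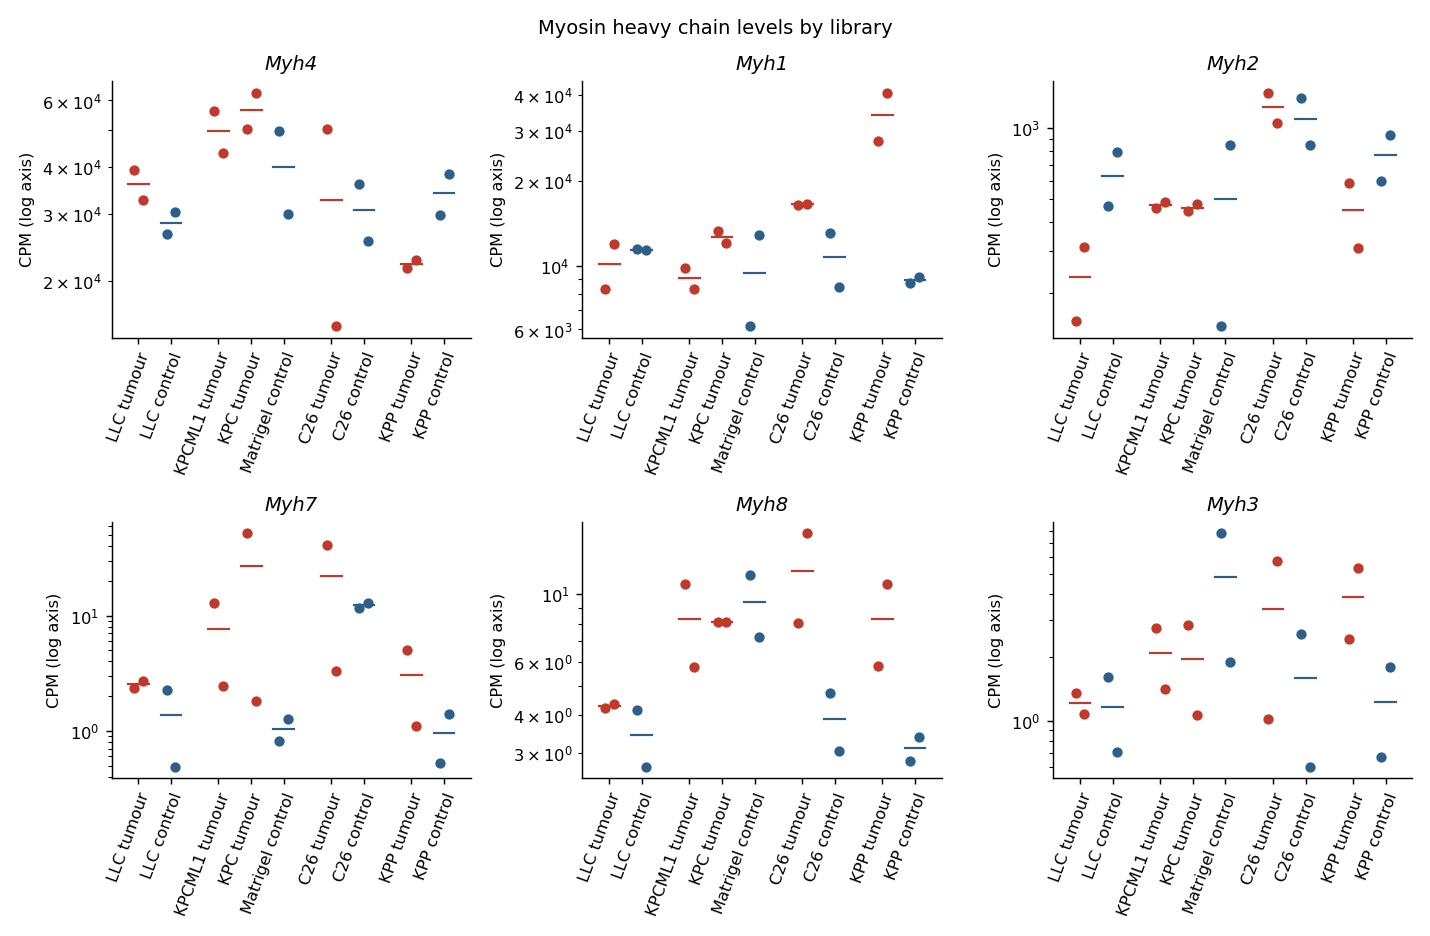
CPM of each myosin heavy chain (log axis) in every library, one panel per gene; red points are tumour libraries, blue points control libraries and short bars group means, 2 libraries per group. Myh1 reaches 27546 and 40833 CPM in KPP tumour libraries, and Myh7 reaches 51.7 CPM in one KPC tumour library against 1.81 CPM in the other.

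Myh7, the slow isoform, was low in all libraries and varied more between replicates than any other member. It had 51.7 and 1.81 CPM in KPC tumour libraries, against 0.811 and 1.26 CPM in Matrigel control libraries. One KPC tumour library was far above the rest and the other just above the controls. The log2 fold change was 4.69 ± 1.45 (edgeR adjusted p = 0.0266), and without KPC tumour replicate 1 the adjusted p was 0.691. Without Matrigel control replicate 1 or 2 it was 0.152 and 0.129, and with a replicate block 0.116. KPCML1 tumour libraries had 12.9 and 2.45 CPM against those same controls (2.90 ± 1.39).

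Uneven replicates recurred for Myh7 in other models. C26 tumour libraries had 41.1 and 3.3 CPM, against 11.7 and 12.9 CPM in C26 control libraries, and KPP tumour libraries had 5.00 and 1.09 CPM, against 0.531 and 1.4 CPM in KPP control libraries. LLC tumour libraries had 2.35 and 2.71 CPM, against 2.25 and 0.488 CPM in LLC control libraries. None of these 3 passed, and the C26 and KPP groups overlapped. The mean effect was 2.204 ± 0.71 (edgeR adjusted p = 0.0176), a call lost without either Matrigel control (adjusted p = 0.0801 and 0.0613) or KPC tumour replicate 1 (0.0514). Among the 8 control libraries, Myh7 was at 11.7 and 12.9 CPM in the CD2F1 muscles and at most 2.25 CPM in the C57BL/6 muscles. Strain and experiment cannot be told apart in that difference.

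Myh8, the perinatal isoform, rose in 2 models. It had 8.07 and 15.9 CPM in C26 tumour libraries, against 4.72 and 3.06 CPM in C26 control libraries, and 5.82 and 10.8 CPM in KPP tumour libraries, against 2.83 and 3.4 CPM in KPP control libraries. Neither pair of groups overlapped. Myh8 rested on few counts, 68 to 358 per control library and 106 to 476 per tumour library. Of its 31-base windows 30.8% also occurred in another member. The part of shared reads in its values was not tested. The log2 fold changes were 1.62 ± 0.41 in C26 (edgeR adjusted p = 0.0133) and 1.43 ± 0.42 in KPP (edgeR adjusted p = 0.0169). The C26 call was lost without C26 tumour replicate 2 (adjusted p = 0.18) or C26 control replicate 2 (0.141), and the KPP call without KPP tumour replicate 2 (0.137) or KPP control replicate 1 (0.116).

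In LLC, KPCML1 and KPC, Myh8 did not pass. LLC tumour libraries had 4.22 and 4.35 CPM, against 4.16 and 2.71 CPM in LLC control libraries. KPCML1 tumour libraries had 10.8 and 5.76 CPM and KPC tumour libraries 8.1 and 8.13 CPM, against 11.6 and 7.23 CPM in Matrigel control libraries. The mean effect was 0.60 ± 0.20 (edgeR adjusted p = 0.0234), a call lost without Matrigel control replicate 2 (adjusted p = 0.131) or LLC control replicate 2 (0.0564).

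Myh3, the embryonic isoform, rested on 19 to 240 counts per library and passed in no model. The highest values were 7.78 CPM in Matrigel control replicate 1, 5.77 CPM in C26 tumour replicate 2 and 5.33 CPM in KPP tumour replicate 2. KPP tumour libraries had 2.44 and 5.33 CPM, against 0.672 and 1.8 CPM in KPP control libraries (1.69 ± 0.92, edgeR adjusted p = 0.164). The groups overlapped in the other 4 models, where log2 fold changes ran between -1.29 and 1.09.

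**Figure D3:**
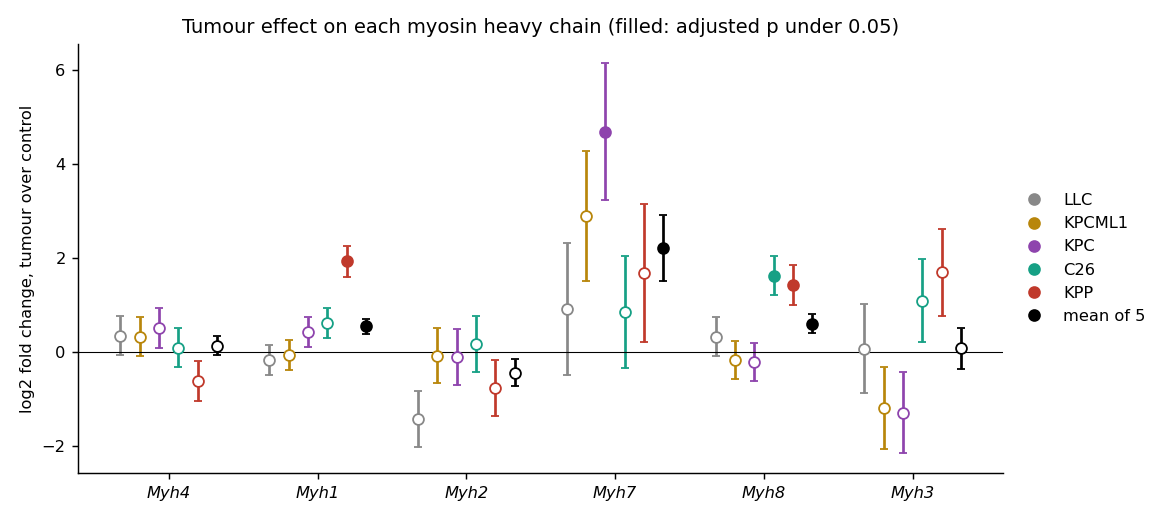
Log2 fold change of tumour over control for each myosin heavy chain (vertical axis), with bars of approximate SE, in 5 models and for their mean. Filled points passed an adjusted p under 0.05. Myh1 in KPP is at 1.93, Myh7 in KPC at 4.69, and Myh8 is filled in C26, in KPP and for the mean.

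Counted over the family, 2 of 6 members were called in KPP, where 36.7% of all genes tested were called. One member was called in KPC against 29.1% of all genes, and 1 in C26 against 21.3%. No member was called in LLC or in KPCML1, where 13.6% and 8.53% of all genes were called; at an unadjusted p under 0.05 there was 1 in LLC (Myh2) and 0 in KPCML1, and DESeq2 also called 0 in both. For the mean effect 3 of 6 were called, all higher, against 50.8% of all genes called and 25.2% called higher. Counted in either direction, these shares lie near the background of each comparison. The 3 of 6 called higher for the mean effect exceed 25.2%, a difference that was not tested. KPC and KPCML1 share their control libraries, so their values are not independent of each other.

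A test of differences among the 5 tumour effects called Myh1 (edgeR adjusted p = 0.0443) and no other member, against 8.32% of all genes. Its log2 fold change was lower in LLC than in KPP by a difference of -2.10 ± 0.46 (edgeR adjusted p = 0.0178) and lower in KPCML1 than in KPP by -1.99 ± 0.46 (edgeR adjusted p = 0.0362). Those 2 pairs were called among 10 pairs of models, where 8.29% and 3.47% of all genes were called. KPC and C26 differed from KPP by -1.51 ± 0.46 and -1.31 ± 0.46, with adjusted p = 0.151 and 0.172. The joint call of Myh1 was lost with a replicate block (adjusted p = 0.126) and on leaving out any one of 12 of the 18 libraries, the highest adjusted p being 0.13 without KPP control replicate 1.

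The summed family TPM was higher on average in tumour libraries of every model. It was 9334 and 10384 TPM in LLC tumour libraries, against 5576 and 6594 TPM in LLC control libraries, and 7862 and 11565 TPM in KPP tumour libraries, against 7352 and 6489 TPM in KPP control libraries. It was 14469 and 10980 TPM in KPCML1 tumour libraries and 11013 and 12383 TPM in KPC tumour libraries, against 9673 and 6967 TPM in Matrigel control libraries. C26 tumour libraries had 15350 and 9050 TPM, against 10053 and 5603 TPM in C26 control libraries, and these overlapped while the other 4 comparisons did not. The mean log2 difference was 0.59.

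That sum moves with what else is in the library. Mitochondrially encoded transcripts took 13.02% to 33.6% of TPM in tumour libraries and 28.9% to 39.04% in control libraries. With those transcripts left out and TPM rescaled, the mean log2 difference of the family was 0.35, and on CPM with TMM (trimmed mean of M values) scaling it was 0.30. How far the mitochondrial share accounts for the rest was not tested.

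Within Myh1, 2 annotated transcripts of 6081 and 6012 bases carried most of the gene. The longer held 48.5% to 76.5% of Myh1 TPM over the 18 libraries, and the shorter 10.6% to 41.7%. In KPP, where Myh1 rose, the longer held 55.2% and 48.5% in tumour libraries, against 48.5% and 51.7% in control libraries. The rise was thus carried by both transcripts. Myh2 was divided between transcripts of 6083 bases (24.1% to 77.9%) and 6018 bases (21.4% to 75.6%), while a transcript of 6016 bases carried nearly all of Myh4. Myh7 also drew TPM from short entries: a retained-intron transcript of 595 bases held up to 81.0% of its TPM.

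**Figure D4:**
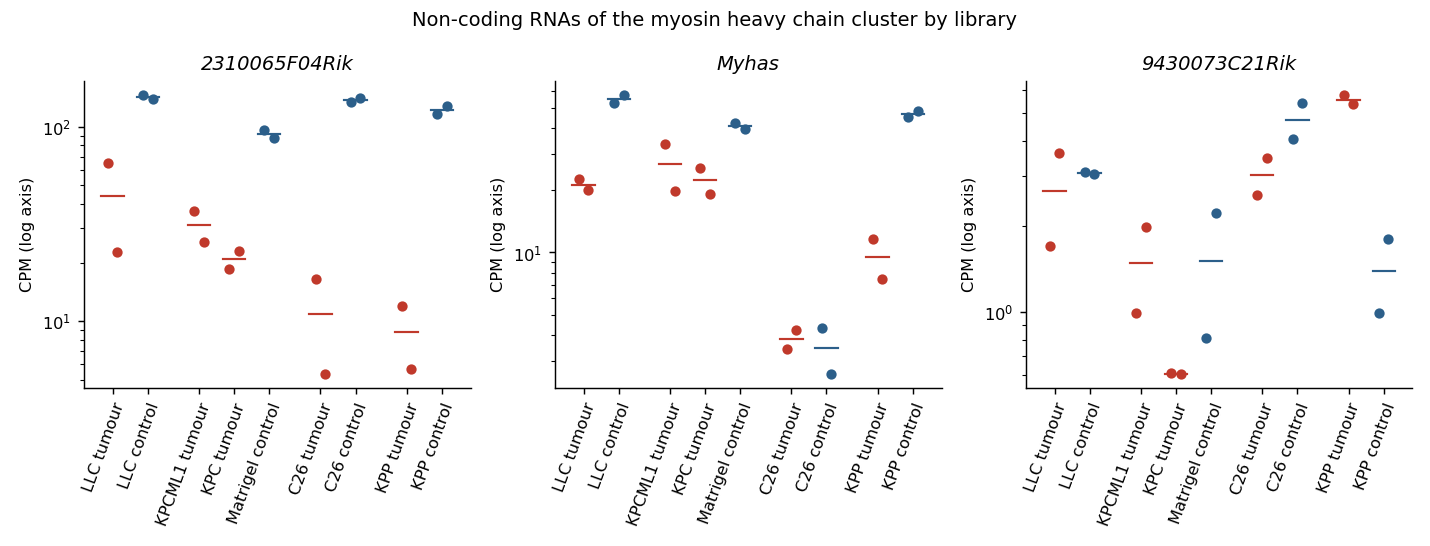
CPM (log axis) of 3 non-coding RNAs annotated within the myosin heavy chain cluster, in every library; red points are tumour libraries, blue points control libraries and short bars group means. All tumour libraries lie below their own controls for 2310065F04Rik, down to 5.33 CPM in C26 and 5.66 CPM in KPP.

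All members but Myh7 lie in one cluster on chromosome 11 (mm10, plus strand), in the order Myh3 (chr11:67078300-67102291), Myh2 (chr11:67171027-67197517), Myh1 (chr11:67200052-67224575), Myh4 (chr11:67238029-67260446) and Myh8 (chr11:67277124-67308634), followed by the extraocular isoform Myh13. Myh7 lies on the minus strand of chromosome 14 (chr14:54970684-54994626). On the minus strand of the cluster, 3 non-coding RNAs had counts in all libraries. The lincRNA 2310065F04Rik (chr11:67112461-67120080) lies between Myh3 and Myh2 and is known as linc-MYH. It was lower in tumour libraries of every model.

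2310065F04Rik had 11.9 and 5.66 CPM in KPP tumour libraries, against 117 and 128 CPM in KPP control libraries, and 16.5 and 5.33 CPM in C26 tumour libraries, against 133 and 140 CPM in C26 control libraries. KPC tumour libraries had 18.6 and 23.1 CPM and KPCML1 tumour libraries 36.8 and 25.4 CPM, against 95.7 and 87.7 CPM in Matrigel control libraries. LLC tumour libraries had 65.1 and 22.6 CPM, against 145 and 139 CPM in LLC control libraries. Tumour and control libraries did not overlap in any of the 5 models. The log2 fold change was -3.81 ± 0.54 in KPP, -3.64 ± 0.53 in C26, -2.14 ± 0.50 in KPC and -1.70 ± 0.49 in LLC, which all passed (edgeR adjusted p = 0.000207, 0.000577, 0.00653 and 0.0331). In KPCML1 it was -1.56 ± 0.49 (edgeR adjusted p = 0.0625). Leaving out single LLC libraries ended the LLC call in 3 of 4 cases, with adjusted p up to 0.286.

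Myhas (chr11:67211256-67237573) overlaps Myh1 on the opposite strand, and 9430073C21Rik (chr11:67195680-67199234) overlaps the end of Myh2. The library kit was directional, but the strand setting of the quantifier is not given in the sources used here, so reads of these RNAs and of the myosin genes may not be fully separated. Myhas fell in KPP, with 11.6 and 7.48 CPM in tumour libraries, against 45.2 and 48.0 CPM in control libraries (-2.29 ± 0.29, edgeR adjusted p = 0.00011). It also fell in LLC, with 22.6 and 20.0 CPM in tumour libraries, against 52.6 and 57.5 CPM in control libraries (-1.37 ± 0.28, edgeR adjusted p = 0.00594), a call lost without LLC tumour replicate 2 (adjusted p = 0.0802). In KPC the log2 fold change was -0.86 ± 0.27 (edgeR adjusted p = 0.0299), a call that was lost on leaving out either Matrigel control or KPC tumour replicate 2.

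In CD2F1 mice Myhas was low in every muscle, at 3.43 and 4.23 CPM in C26 tumour libraries, against 4.32 and 2.58 CPM in C26 control libraries. As for Myh7, this level goes with strain and experiment together. 9430073C21Rik had 5.78 and 5.36 CPM in KPP tumour libraries, against 0.99 and 1.8 CPM in KPP control libraries (2.01 ± 0.48, edgeR adjusted p = 0.00567), and passed in no other model. That call was lost without KPP control replicate 1 (adjusted p = 0.0753). In KPP, Myh1 and 9430073C21Rik were thus higher than in controls while Myhas and 2310065F04Rik were lower.

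Among genes of the fast-fibre program other than the 6 members, more were called lower than higher in every model. Of 16 such genes 7 were called lower in LLC, 5 in KPCML1, 5 in KPC, 10 in C26 and 8 in KPP, against 6.24%, 4.38%, 13.7%, 9.8% and 19.3% of all genes. One was called higher in KPC and 1 in KPP. The median log2 fold change of the list was -0.77 in KPP, -1.26 in C26, -0.43 in KPC, -0.42 in KPCML1 and -0.83 in LLC, against medians between -0.04 and 0.04 over all genes. In KPCML1 the count lower was 0 without either Matrigel control or KPCML1 tumour replicate 2, and 2 without KPCML1 tumour replicate 1. In KPC it was 3 without Matrigel control replicate 1 and 2 without Matrigel control replicate 2 or either KPC tumour library, and in LLC it was 4 without LLC tumour replicate 2.

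Casq1, the calcium-binding protein of the fast sarcoplasmic reticulum, had 260 and 291 CPM in KPP tumour libraries, against 1841 and 2105 CPM in KPP control libraries (-2.84 ± 0.29). Myl1, the fast alkali light chain that binds these heavy chains, had 2145 and 1247 CPM in KPP tumour libraries, against 9685 and 10568 CPM in KPP control libraries (-2.58 ± 0.35). Both were called lower in all 5 models, as were Eno3, muscle enolase, and Gpd1, the cytosolic glycerol-3-phosphate dehydrogenase. Mean effects were -2.21 ± 0.13 for Casq1, -1.97 ± 0.16 for Myl1, -1.89 ± 0.16 for Eno3 and -1.96 ± 0.18 for Gpd1. Beside them, the mean effect of Myh4 was 0.13 ± 0.21 (edgeR adjusted p = 0.642).

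The slow-fibre program showed a mixed picture. Of 13 genes 4 were called higher in KPC, 3 in C26, 3 in KPP, 1 in KPCML1 and 1 in LLC, against 15.3%, 11.5%, 17.4%, 4.15% and 7.39% of all genes, and 1 was called lower in each of LLC, C26 and KPP. Lmod2, an actin filament nucleator, had 861 and 601 CPM in KPP tumour libraries, against 84.9 and 188 CPM in KPP control libraries (2.42 ± 0.43), and its mean effect was 1.87 ± 0.22. Sln, the calcium pump regulator sarcolipin, had a mean effect of 2.67 ± 0.43, and Atp2a2, the slow calcium pump, one of 0.45 ± 0.12. Myl3, the slow alkali light chain, fell instead, with a mean effect of -1.98 ± 0.36. Without Matrigel control replicate 1 or KPC tumour replicate 1, the KPC count was 1 of 13, and without C26 control replicate 2 or C26 tumour replicate 2 the C26 count was 0. The single KPCML1 call was lost whichever library was left out, and the count higher in LLC was 0 in 3 of 4 omissions.

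Of 16 developmental and regeneration genes listed, which do not include Myh3 or Myh8, 15 were tested. Of these, 5 were called higher in C26, 4 in KPP, 3 in LLC and 2 in KPC, and 1, 4, 1 and 2 were called lower there. Over all genes 11.5%, 17.4%, 7.39% and 15.3% were called higher and 9.8%, 19.3%, 6.24% and 13.7% lower in those models. In KPCML1 edgeR called 2 lower and 0 higher, with 1 higher at an unadjusted p under 0.05. Leaving out single libraries gave 3 to 7 higher in C26, 1 to 4 in KPP, 0 to 2 in LLC and 0 to 2 in KPC, with 3 in C26 without C26 control replicate 2 or C26 tumour replicate 2, 1 in KPP without KPP tumour replicate 2, 0 in LLC without LLC tumour replicate 2 and 1 without either LLC control, 0 in KPC without Matrigel control replicate 2 and 1 without KPC tumour replicate 2. The count lower was 1 in KPP without KPP control replicate 1 or KPP tumour replicate 1, and 0 in KPCML1 and in C26 whichever library was left out. Cdh15, a cadherin of myoblasts and satellite cells, had a mean effect of 1.46 ± 0.14 and passed in LLC, KPC, C26 and KPP, as did Myog, the myogenic factor myogenin (mean effect 2.70 ± 0.44). Chrna1, the acetylcholine receptor subunit that rises in denervated and immature fibres, had 58.3 and 58.7 CPM in C26 tumour libraries, against 7.78 and 6.24 CPM in C26 control libraries (3.06 ± 0.58). Actc1, cardiac actin of immature fibres, fell instead, at 1.86 and 3.18 CPM in KPP tumour libraries, against 111 and 44.2 CPM in KPP control libraries. The 8 satellite cell markers summed to between 125 and 291 CPM in tumour libraries and to between 77.2 and 119 CPM in control libraries; 3 of the 8 were called higher in C26, and 3 higher and 3 lower in KPP. Their part in the Myh8 result was not tested.

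Among 39 regulators of fibre type, 10 were called lower and 4 higher in KPP, 9 and 3 in C26, 8 and 7 in KPC, 2 and 1 in KPCML1, and 6 and 5 in LLC. Over all genes 19.3% and 17.4% were called lower and higher in KPP, 9.8% and 11.5% in C26, 13.7% and 15.3% in KPC, 4.38% and 4.15% in KPCML1, and 6.24% and 7.39% in LLC. Leaving out single libraries gave 4 to 8 lower and 1 to 2 higher in C26, 2 to 8 lower and 1 to 6 higher in KPC, 6 to 12 lower and 2 to 4 higher in KPP, 0 to 3 lower and 0 to 1 higher in KPCML1, and 3 to 5 lower and 1 to 4 higher in LLC. The KPC counts were 4 lower and 2 higher without Matrigel control replicate 1, and the C26 counts 4 lower and 1 higher without C26 tumour replicate 2. Esrra, the oxidative-metabolism receptor, was lower in every model, with a mean effect of -1.09 ± 0.09. Smyd1, the methyltransferase that assists thick-filament assembly, had 157 and 199 CPM in KPP tumour libraries, against 415 and 396 CPM in KPP control libraries, and a mean effect of -1.01 ± 0.10. Mafa, a large Maf factor tied to type IIb fibres in mouse, had a mean effect of -1.20 ± 0.14 and passed in LLC, KPC and C26. Foxo1, a transcription factor of the atrophy response, had a mean effect of 2.39 ± 0.29.

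Of 21 genes of thick-filament assembly and turnover 7 were called higher in KPP, 5 in KPC, 3 in C26, 3 in KPCML1 and 2 in LLC, and 4, 2, 3, 2 and 2 were called lower in those models. Over all genes 17.4%, 15.3%, 11.5%, 4.15% and 7.39% were called higher and 19.3%, 13.7%, 9.8%, 4.38% and 6.24% lower. In KPC the count higher was 3 without either Matrigel control or KPC tumour replicate 2. The count lower was 0 in C26 without C26 tumour replicate 2, 0 in LLC without LLC tumour replicate 2 and 1 without any other LLC library, 1 in KPCML1 without KPCML1 tumour replicate 1, and 0 there without either Matrigel control or KPCML1 tumour replicate 2. Trim63, the ligase MuRF1 that targets myosin heavy chain, had 2853 and 2500 CPM in KPP tumour libraries, against 212 and 413 CPM in KPP control libraries, and a mean effect of 3.38 ± 0.26. Fbxo32, the ligase component atrogin-1, had a mean effect of 2.75 ± 0.18, and both rose in all 5 models. Trim55, the related MuRF2, had a mean effect of -0.80 ± 0.09.

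Among 8 other myosin heavy chains, Myh14 had the highest tumour levels. This non-muscle isoform rose in all 5 models, with log2 fold changes between 1.42 ± 0.27 in KPCML1 and 2.65 ± 0.28 in LLC. In LLC it had 199 and 284 CPM in tumour libraries, against 33.2 and 43.4 CPM in control libraries. Myh7b, a slow-type isoform, had a mean effect of 1.09 ± 0.32 (edgeR adjusted p = 0.0109) at levels of 3.33 to 6.55 CPM in tumour libraries and 0.526 to 4.72 CPM in control libraries. Myh6, the cardiac alpha isoform, and Myh13 passed in no model, and Myh15 had at most 8 counts in a library and was not tested. Myh9, a non-muscle isoform of many cell types, had 20.6 to 70.6 CPM in tumour libraries and 32.0 to 64.1 CPM in control libraries. Myh10, another non-muscle isoform, had a mean effect of -0.37 ± 0.14 (edgeR adjusted p = 0.0398) and passed in no single model. Myh11, the smooth muscle isoform, was lower in KPP (-1.63 ± 0.39). There 9 of 10 smooth muscle and pericyte markers, a list that includes Myh11, were called lower, against 19.3% of all genes.

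**Figure D5:**
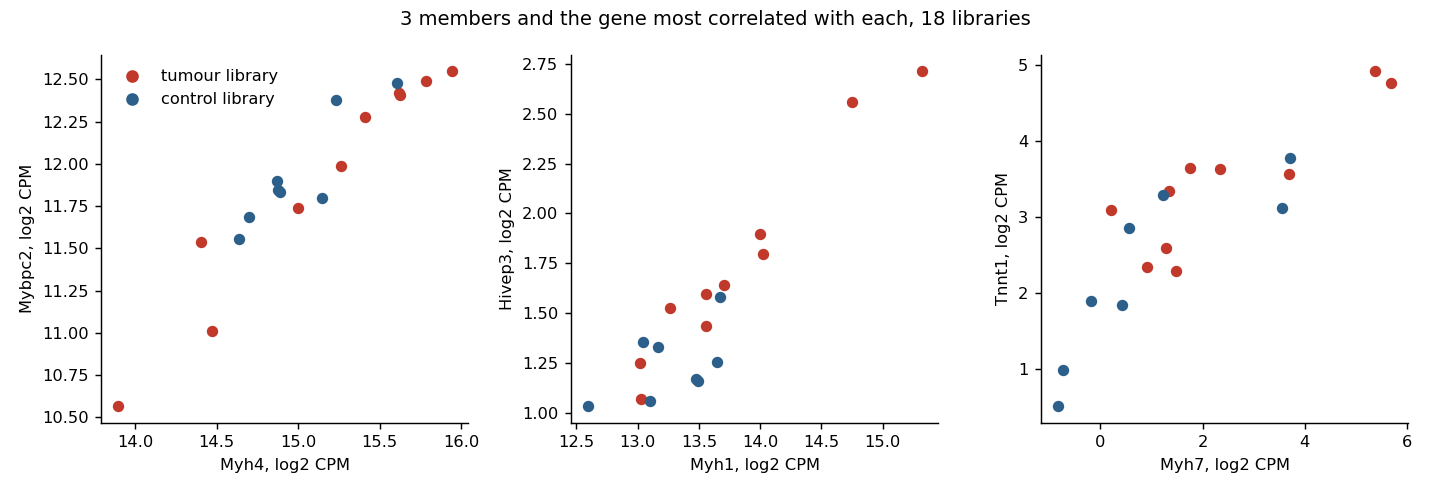
Log2 CPM of Myh4, Myh1 and Myh7 (horizontal axes) and of the gene most correlated with each (vertical axes), one point per library, 18 libraries; red points are tumour and blue points control. Pearson's r is 0.947 for Mybpc2 with Myh4, 0.931 for Hivep3 with Myh1 and 0.87 for Tnnt1 with Myh7.

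The genes whose log2 CPM followed each member most closely were sought among 13512 named genes over the 18 libraries, which share experiments and depth, so these correlations are descriptions. Myh4 was closest to Mybpc2, the fast myosin-binding protein C (Pearson's r = 0.947), then Slc2a3, a glucose transporter (0.801), and Pygm, muscle glycogen phosphorylase (0.797). Myh7 was closest to the slow thin-filament genes Tnnt1 (0.87), Tnnc1 (0.851) and Tnni1 (0.814). In the KPC tumour libraries Tnnc1 had 23.9 and 3.37 CPM, beside 51.7 and 1.81 CPM of Myh7, so the same library was high on both. Myh1 was closest to Hivep3 (0.931), Ccdc136 (0.884) and Acss2, an acetyl-CoA synthetase (0.883), and both KPP tumour libraries were the highest of the series for Myh1 and Hivep3.

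Myh2 was closest to Tmem191c (0.765), Cox6a1 (0.76) and Ttc12 (0.738), and Myh8 to Tc2n (0.796), Ap2a2 (0.78) and Glg1 (0.771). Myh3 was closest to Atp6v0d2 (0.716), Gpr137c (0.706) and Ywhah (0.679). Among the members themselves the highest correlation was between the developmental isoforms Myh3 and Myh8 (0.785) and the lowest between Myh1 and Myh4 (-0.468).

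The authors' deposited tables were fitted with DESeq2 per the submitters' processing notes. Those for LLC, C26, KPP and 50000 KPC cells gave adjusted p under 0.05 for 4 pairs of a member and a model. In the authors' deposited table for KPP these were Myh1 (log2 fold change 1.96 ± 0.28, adjusted p = 4.03e-10) and Myh8 (1.42 ± 0.49, adjusted p = 0.0203). In the authors' deposited table for C26 it was Myh8 (1.61 ± 0.43, adjusted p = 0.00177), and in the authors' deposited table for 50000 KPC cells it was Myh7 (5.48 ± 1.76, adjusted p = 0.0133). No member passed in the authors' deposited table for LLC, where Myh2 was at -1.45 ± 0.62 (adjusted p = 0.0671). Over all genes with an adjusted p, 3165 of 14050 passed in KPP and 3026 of 14666 in C26. For 50000 KPC cells 2930 of 13483 passed, and for LLC 3167 of 12316. A further deposited table, whose name gives a cell number found in no label, was not used.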

How the data were processed

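Poly(A) RNA from tibialis anterior muscle was made into directional paired-end libraries, per the labels' protocols. The authors deposited one transcript table per library with estimated counts and TPM from Salmon; the submitters' processing notes also name bcl2fastq 2.20, FastQC, DESeq2 and build mm10. The Salmon version, its strand setting and the transcript release were not given in the sources used here. The authors also deposited tables of their own comparisons, with log2 fold changes, p-values, a mean normalised signal (baseMean) and a test score (stat, not used here).

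Of 140825 transcripts 139881 were matched by identifier to GENCODE M21 and 944 were not. The deposited estimated counts were added up over the transcripts of a gene, then rounded to whole numbers, and TPM was added up likewise. TMM-scaled counts of all 9 groups were fitted in one model with edgeR 4.0.16 (quasi-likelihood test, Benjamini-Hochberg adjustment over 16089 genes after filterByExpr), since each group has 2 libraries; the residual degrees of freedom were 9. CPM values use TMM library sizes, and log2 CPM a prior count of 2. The SE of an edgeR log2 fold change is its absolute value divided by the square root of the F statistic, an approximation. Salmon divides reads shared by similar transcripts by likelihood, so values of close family members are partly coupled. Family shares were tested with exact permutation tests in Python 3.11.15 with scipy 1.17.1, and coding sequences were aligned with mafft 7.526. The fit was also run on simulated data with 200 genes changed. The outcome is not given here, and no result rests on it. Each library's 22546541 to 36673780 fragments bound counting error only, and p-values measure the spread between libraries labelled as biological replicates.

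Members and gene lists were chosen with earlier results of these data known. The text names all 6 members, every gene inside the chromosome 11 cluster with at least 10 counts in 2 libraries, up to 4 genes per list by smallest p in the mean effect, and the 3 genes most correlated with each member, leaving out predicted names, pseudogenes and immune receptor segments. Alternatives were another scaling, no filter, length-scaled counts, a replicate block, single-experiment fits, DESeq2 1.42.0 and leaving out each library. Smooth muscle and pericyte markers summed to 444 to 679 CPM in tumour and 564 to 725 CPM in control libraries, macrophage markers to 48.5 to 157 and 42.5 to 113 CPM, and muscle spindle and extraocular genes to 8.44 to 18.4 and 4.58 to 18.1 CPM.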

Additional observations from a re-analysis of the deposited data

Results flagged for a closer look

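Tumour effects that differed among the 5 models by edgeR's joint test were found for Myh1 (Benjamini-Hochberg adjusted p = 0.0443), Myhas (0.021) and 9430073C21Rik (0.0431). The call of Myhas was lost with a replicate block (adjusted p = 0.0527), and those of the other two as well. The call of 9430073C21Rik was also lost on leaving out any one of 12 of the 18 libraries (adjusted p up to 0.14), that of Myh1 on leaving out 12 (up to 0.13), and that of Myhas on leaving out 3, LLC control replicate 1 or 2 or C26 control replicate 2 (up to 0.0567). Between pairs of models, the log2 fold change of Myh1 differed by -2.10 between LLC and KPP and by -1.99 between KPCML1 and KPP, with KPP the higher. That of Myhas differed by 1.69 between KPCML1 and KPP and by 2.45 between C26 and KPP, with KPP the lower.

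For the shares, ratio and CPM picked here, tumour libraries lay on opposite sides of their controls in different models, without overlap. The differences between these models were not tested on these scales. With 2 libraries against 2, separation in a single model has an exact two-sided permutation p of 0.333. Such separation was the reason for picking these measures, and its share over all genes is not given here. The share of Myh1 differed by 38.9 percentage points in KPP and by -6.31 in LLC, and that of Myh4 by -38.0 in KPP and 7.34 in LLC. As shares add up to 100%, the differences of Myh1 and Myh4 are not independent. The log2 TPM ratio of Myh4 to Myh1 plus Myh2 differed by -2.41 in KPP, with -0.37 and -0.86 in tumour libraries against 1.67 and 1.92 in control libraries, and by 0.58 in LLC. Myh4 differed by -11981 CPM in KPP, 7571 CPM in LLC and 16667 CPM in KPC, where the nearest values were 50291 and 49766 CPM. On log2 fold changes, edgeR's joint test did not call Myh4 (adjusted p = 0.559).

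Shares of the developmental isoforms split in the same way at very low levels. The share of Myh8 differed by 0.0209 percentage points in C26 and 0.00692 in KPP, and by -0.00495 in KPCML1 and -0.00688 in KPC. The share of Myh3 differed by 0.0039 percentage points in KPP and -0.00571 in KPCML1. These differences between models were not tested, and KPCML1 and KPC share their controls.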

How the results depend on the processing

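Myh1 in KPP passed under every alternative run. Without the filter on low counts, 2 members each were called in LLC, KPCML1, KPC and C26, 5 in KPP and 5 for differences among models. All genes called were then 2244 against 1373 in KPCML1 and 4128 against 1339 for differences among models. These totals are not on the same base, since the fit kept every gene with a count (29433 in the series) in place of 16089. Shares of all genes called in that fit are not given here, so its member counts are not read as a result. A replicate block left 0 members called in KPC and 0 for differences among models, where 285 genes were called, and 690 and 1329 genes were called in KPCML1 and LLC. The labels give no pairing, and replicate differences correlated between -0.174 and 0.0932. With the block, log2 fold changes changed sign for Myh2 in KPCML1 (0.24) and KPC (0.20), Myh4 in C26 (-0.13), Myh7 in C26 (-0.016) and 9430073C21Rik in KPCML1 (0.025). A crossed block in KPP, added after seeing the data, called 2 members and 5553 genes. Each experiment alone called 1 member in LLC, with 3935 genes against 2193, 752 in KPCML1 and 3432 in KPP. DESeq2 called 2 members and 3474 genes for differences among models. Using only the most abundant transcript, the share difference was -0.351 percentage points for Myh2 (exact permutation p = 0.0401) and -0.00417 for Myh3 (exact permutation p = 0.00772). As a mean over 4 experiments it was -0.556 for Myh2 (exact permutation p = 0.0475) and 0.00091 for Myh3. The causes were not tested.

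Leaving out single libraries gave 0 to 1 members called in KPC, 0 to 2 in C26, 1 to 2 in KPP, 1 to 3 for the mean effect and 0 to 1 for differences among models. Log2 fold changes that changed sign ran, for Myh1, between -0.46 and 0.12 in LLC, -0.52 and 0.54 in KPCML1, and -0.057 and 1.00 in KPC. For Myh2 they ran between -0.87 and 1.69 in KPCML1, -0.93 and 1.64 in KPC, -0.15 and 0.52 in C26, and -0.77 and 0.25 for the mean. For Myh3 they ran between -0.43 and 0.75 in LLC, -1.90 and 0.13 in KPCML1, -2.13 and 0.0016 in KPC, -0.63 and 2.45 in C26, and -0.26 and 0.59 for the mean. For Myh4 they ran between -0.013 and 0.71 in KPCML1, -1.04 and 0.73 in C26, and -0.068 and 0.27 for the mean. Myh7 ran between -1.92 and 1.76 in C26, and Myh8 between -0.67 and 0.24 in KPCML1 and -0.55 and 0.13 in KPC. For the cluster RNAs, 9430073C21Rik ran between -0.84 and 0.28 in LLC, -0.61 and 0.84 in KPCML1, and -0.28 and 0.30 for the mean, and Myhas between -0.20 and 0.54 in C26. Share differences ran between 3.91 and 11.3 percentage points for Myh1, -11.1 and -3.08 for Myh4, 0.00662 and 0.0334 for Myh7, -0.858 and -0.181 for Myh2, -0.00237 and 0.00145 for Myh3, and -0.000303 and 0.00691 for Myh8. Alternatives for the cluster RNAs, the lists and the rescaled family sum were added after seeing the data. The 2 libraries per group limit all values, and Myh3, Myh7 and Myh8 also rest on few counts.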
